A study of Bos taurus and Mus musculus with 16 samples.

Results

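The genes described here encode actins, actin-related proteins, myosin heavy and light chains, tropomyosins and the proteins that bind, cap, sever or anchor actin filaments. They were taken by symbol from the mouse and bovine expression tables: actins, alpha-actinins, actin-related proteins, the ARPC subunits of the Arp2/3 complex, numbered MYH, MYL and MYO genes, TPM1 to TPM4, capping protein, cofilins, profilins, beta-thymosins, filamins, ezrin, radixin, moesin, villin, vinculin and talins. The pattern matched 86 of 16655 genes in the mouse table and 85 of 14852 in the bovine table. These are 92 distinct symbols, of which 79 are in both tables. Genes averaging fewer than 10 normalized reads across a table's samples were not tested. In mouse 64 genes of the group reached that mean and 22 did not, and in cattle 60 reached it and 25 did not. The pattern passed over MYO6, MYO10, MYO16, MYO19 and MYH7B, which are described with the neighbouring pathways. It also passed over the regulatory light chain Mylpf, which is described with the muscle markers.

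RNA-seq was made from whole embryos of 2 species in which TEAD4, a DNA-binding partner of YAP in the Hippo pathway, was targeted by base editing. Edited mouse morulae (2 samples) and edited bovine blastocysts (6 samples) came from zygotes that had received BE3 mRNA, which encodes a Cas9 nickase fused to a cytidine deaminase, together with single guide RNAs against Tead4 or TEAD4. Control mouse morulae (2 samples) and control bovine blastocysts (6 samples) received BE3 mRNA and no guide RNA. Mouse embryos were collected at day 3.25 and bovine embryos at day 7.0 after fertilization. Stage and species therefore cannot be told apart, and neither can guide RNA injection and loss of TEAD4. The labels give neither a strain or breed, nor the number of embryos in a sample, nor whether samples came from separate injections. The p-values therefore rest on how far these samples spread, and part of that spread may be technical.

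Actin filaments grow from profilin-bound monomers, are branched by the Arp2/3 complex and disassembled by cofilin, while beta-thymosins hold monomers in reserve. Non-muscle myosin II, a hexamer of heavy chains, regulatory light chains and essential light chains, pulls on these filaments. In the preimplantation embryo this cortical actomyosin network drives compaction and the sorting of cells to inside and outside positions, and ezrin links actin to the apical membrane of the outer cells. Hippo signalling, which controls the YAP-TEAD4 pair in the trophectoderm lineage, responds to the same apical actin domain.

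Edited mouse samples held 4386305 and 6109425 reads in genes, and control mouse samples held 4187826 and 3642907. Bovine depth was lower, from 817329 to 2259064 reads in edited samples and from 934078 to 2501592 in controls. Tead4 stood at 57.2 and 76.5 normalized reads in edited morulae, against 458 and 519 in controls (log2 fold change -2.86 ± 0.25 (SE), adjusted p 5.37e-09). TEAD4 ranged from 22.6 to 65.6 in edited blastocysts, against 61.2 to 125 in controls, a log2 fold change of -1.25 ± 0.25 with an adjusted p of 0.235 and an unadjusted p of 6.58e-05, while the authors' deposited table gives an adjusted p of 0.0142. Of 10 tested trophectoderm markers in mouse, 6 fell and 1 rose, and their summed level was 2553 to 3027 in edited morulae, against 7919 to 9087 in controls. Of 8 inner cell mass markers 4 rose and none fell, with sums of 3024 to 3622 in edited morulae and 2357 to 2719 in controls. In bulk samples fewer cells of a type and less RNA per cell cannot be told apart, and the part that these lineage markers play in the actin and myosin results was not tested.

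Most of the actin and myosin genes that changed in mouse morulae fell. With limma and Benjamini-Hochberg adjustment over all genes, 14 of the 64 tested genes of the group fell and 2 rose. Over all 11386 tested mouse genes 8.38% fell and 6.92% rose. The same shares are the background for the mouse counts by role below. Of the 64, 43 had a lower mean log2 value in edited morulae, and the median log2 fold change was -0.27, beside -0.0049 over all tested genes. The edited and control values did not overlap for 31 genes that were lower and 15 that were higher in edited morulae, against a background of 29.2% lower and 28.6% higher over all genes. All genes of the group together took 1.32% and 1.57% of normalized reads in edited morulae, against 1.84% and 1.95% in control morulae. This share is weighted toward abundant genes, above all Actb. The actins, mostly Actb, summed to 20794 to 28345 normalized reads in edited morulae and 37903 to 40221 in controls. Among all called genes 45.2% were higher in edited morulae. Scaling every sample to the same total moved this share to 61.9% and the median of all genes to 0.12, with 3 genes of the group higher and 11 lower and a group median of -0.14. Leaving out the most abundant feature before that scaling gave 67.6% and an all-gene median of 0.16, with 4 genes higher, 11 lower and a group median of -0.10.

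With 2 samples per group, single libraries moved the counts of called genes, in the group and over all genes. The group and all-gene medians were -0.10 and 0.019 without edited replicate 1, and -0.34 and -0.034 without edited replicate 2. They were -0.26 and -0.015 without control replicate 1, and -0.28 and 0.015 without control replicate 2. In each such fit the lone sample of a group is assumed to vary like the others. Tmsb10, Myl6, Myl12b, Myo1c and Actb passed in all 4 of these fits. edgeR's quasi-likelihood test and DESeq2 on recovered reads each called 13 lower and 2 higher, beside 7.54% lower and 7.12% higher of all genes with edgeR and 6.67% lower and 5.22% higher with DESeq2.

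**Figure D1:**
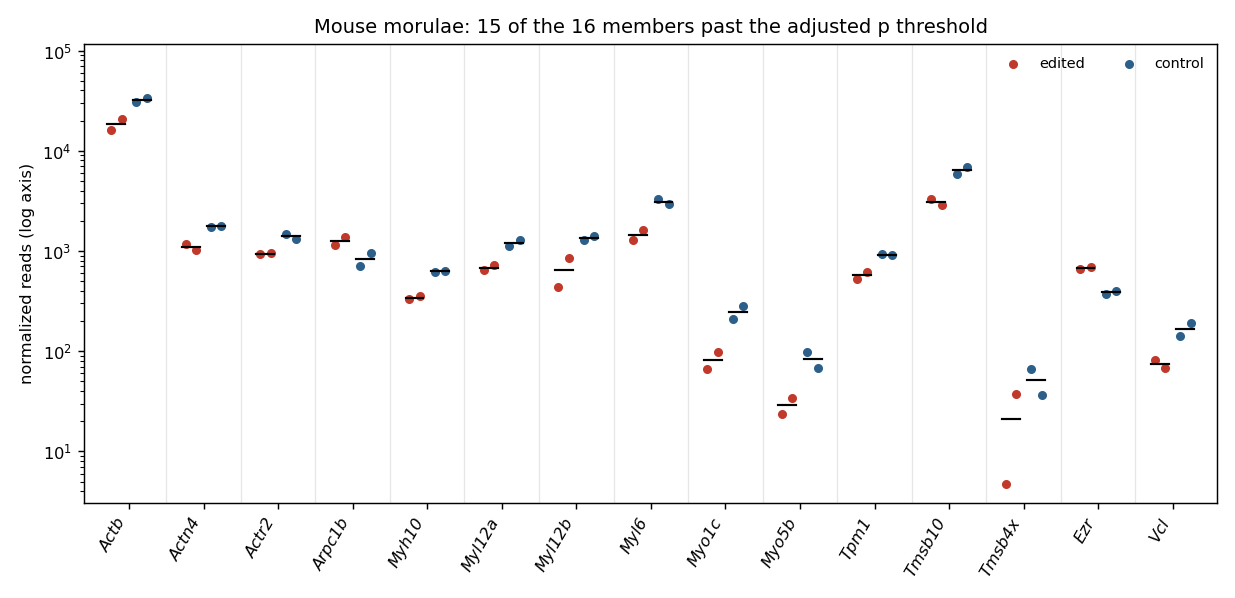
Normalized reads (log axis) of 15 of the 16 genes of the group past an adjusted p of 0.05 in mouse morulae, with edited samples in red left of control samples in blue, 1 point per sample and a bar at the group mean. The groups are apart for every plotted gene but Tmsb4x, and Ezr and Arpc1b are the 2 genes with higher edited samples. The genes were picked by the test on these same samples, so this separation adds no support. Groups were also apart for 29.2% (lower) and 28.6% (higher) of all tested mouse genes.

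Of the cytoplasmic actins, Actb (beta-actin) fell in edited morulae and Actg1 (gamma-actin) did not pass. They encode nearly the same protein from coding sequences that were 88.7% identical over 1128 aligned bases, with a longest identical run of 62 bases. Their first 60 coding bases, from GENCODE M21 on GRCm38, are shown because short reads from such stretches can match both genes, and the sources used here do not say how the authors counted such reads. Capitals mark the 9 bases that differ between the pair.
Actb (chr5:142903115-142906754, minus strand): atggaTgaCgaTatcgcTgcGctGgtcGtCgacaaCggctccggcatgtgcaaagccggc
Actg1 (chr11:120345690-120348542, minus strand): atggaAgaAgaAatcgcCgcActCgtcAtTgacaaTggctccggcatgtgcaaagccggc

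Actb had 16264 and 20674 normalized reads in edited morulae, against 30701 and 33910.5 in controls. Both edited samples lay below both controls. The log2 fold change was -0.82 ± 0.16 (SE, adjusted p 0.00122), and the mean edited level was 57.2% of the control mean. Actg1 had 4525 and 7664.5 in edited morulae and 7202 and 6310.3 in controls, which overlap, with a log2 fold change of -0.19 ± 0.19 (adjusted p 0.532). Edited replicate 1 was the lowest of the 4 samples and edited replicate 2 the highest, and the fold change was 0.19 without the first and -0.58 (adjusted p 0.00575) without the second. Acta1, the skeletal muscle actin, was below the filter, with 4.77 and 6.38 normalized reads in edited morulae and 0 in both controls, near the 2.13 to 3.79 that 3 reads are worth in these libraries.

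Per kilobase of principal transcript, Actb was the highest gene of those compared here, at 9619 normalized reads in edited morulae and 16826 in controls. Tmsb10 followed at 4493 in edited morulae and 9255 in controls, Pfn1 at 5997 in edited morulae and 7457 in controls, and Myl6 at 2179 in edited morulae and 4681 in controls. The order of Tmsb10 and Pfn1 on this scale thus differed between the groups.

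Myosin light chains were the role with the highest share of falling members, 3 of 4 tested, and a median log2 fold change of -0.96. Myl6 encodes the essential light chain of non-muscle myosin II. It had 1283 and 1615 normalized reads in edited morulae, against 3307 and 2919 in controls, with no overlap and a log2 fold change of -1.11 ± 0.17 (adjusted p 6.03e-05). The gene lies at chr10:128490860-128494145 on the minus strand.

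Myl12a and Myl12b encode regulatory light chains, whose phosphorylation switches non-muscle myosin II on. They are neighbours on chromosome 17 and their coding sequences were 96.5% identical over 519 bases, with an identical run of 105 bases. Reads from identical runs could be shared between the pair. The first 60 coding bases are shown, with the 4 bases that differ there in capitals.
Myl12a (chr17:70993656-71002878, minus strand): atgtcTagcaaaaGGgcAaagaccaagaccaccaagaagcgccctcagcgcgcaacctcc
Myl12b (chr17:70973133-70990890, minus strand): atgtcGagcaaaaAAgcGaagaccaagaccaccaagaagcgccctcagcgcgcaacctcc

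Myl12b had 440.5 and 850.5 normalized reads in edited morulae, against 1288 and 1400.2 in controls (log2 fold change -1.13 ± 0.22, adjusted p 8.23e-04). Its edited samples differed from each other by more than its controls did, and leaving 1 library out gave fold changes of -1.61 to -0.66. Myl12a had 645 and 720.1 in edited morulae, against 1109.6 and 1279 in controls (-0.81 ± 0.18, adjusted p 0.00275). Neither gene's groups overlapped. The call on Myl12a was lost without control replicate 2 (adjusted p 0.119). The remaining tested light chain, Myl6b, was near the filter at 6.67 to 15.2 over the 4 samples and did not pass.

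Of the 4 tested class II heavy chains 1 fell. Myh10, the heavy chain of non-muscle myosin IIB (chr11:68691559-68816632, plus strand), had 333 and 352 normalized reads in edited morulae and 624 and 629.9 in controls. Replicates lay close together in both groups and far from the other group (-0.87 ± 0.19, adjusted p 0.00289). The adjusted p was 0.0706 without control replicate 1 and 0.0747 without control replicate 2. Myh9, the heavy chain of myosin IIA, had 154.5 and 170.1 in edited morulae and 198 and 344 in controls (-0.68 ± 0.26, adjusted p 0.0704), with the spread mainly between the controls. The call on Myh9 depended on the library left out: it passed without control replicate 1 (adjusted p 0.0492) and without edited replicate 2 (adjusted p 0.0198). The muscle heavy chains Myh1, Myh2, Myh3, Myh4, Myh6, Myh7, Myh8, Myh11 and Myh15 were below the filter. Myh13, another muscle heavy chain, was just above it, at 11.4 and 2.84 in edited morulae and 12.3 and 13.9 in controls, and did not pass (-1.03 ± 0.78).

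Unconventional myosins, which move along actin as single motors or carry membrane cargo, had 2 falling genes of 14 tested. Over all tested genes 8.38% fell. The median log2 fold change of the class was 0.15. It was 0.30 without edited replicate 1, 0.097 without edited replicate 2 and 0.044 without control replicate 2. Myo1c, a membrane-tethering class I myosin (chr11:75650504-75673910, plus strand), had 66.7 and 97.8 normalized reads in edited morulae and 209 and 279.5 in controls. All 4 single-library omissions kept it past the threshold, and its log2 fold change was -1.57 ± 0.27 (adjusted p 2.81e-04). Myo5b, a motor of recycling endosomes in polarized epithelia, had 23.8 and 34.0 in edited morulae and 97.2 and 68.3 in controls (-1.48 ± 0.38, adjusted p 0.00808). Its groups did not overlap, and its adjusted p was 0.187 without control replicate 1. The largest positive estimate of the class belonged to Myo7a, at 24.8 and 22.0 in edited morulae and 7.82 and 12.6 in controls, which did not pass (1.15 ± 0.59, adjusted p 0.202).

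Among filament-stabilizing and crosslinking proteins, 1 tropomyosin of 4 and 1 alpha-actinin of 3 fell. Tpm1, which coats the sides of filaments, had 527 and 613 normalized reads in edited morulae and 929 and 902 in controls (-0.69 ± 0.18, adjusted p 0.0109). Actn4, a non-muscle filament crosslinker, had 1178 and 1034 in edited morulae and 1739.9 and 1777 in controls (-0.67 ± 0.17, adjusted p 0.0072). Neither gene's groups overlapped, and both calls were lost without either control: the adjusted p of Tpm1 was 0.161 without control replicate 1 and 0.128 without control replicate 2, and that of Actn4 was 0.111 and 0.127.

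Close relatives of these genes gave other values. Tpm3 had 1877 and 1871 in edited morulae and 2083 and 2084 in controls (-0.15 ± 0.16), with replicates within a few reads of each other, and its estimate turned to 0.02 under same-total scaling without the most abundant feature. Tpm4 (-0.25 ± 0.18) and Flna (-0.31 ± 0.33) did not pass either. Actn1, the other main non-muscle alpha-actinin, had 366 and 433 in edited morulae and 272 and 271 in controls, the opposite order from Actn4 (0.55 ± 0.21, adjusted p 0.0745). It passed as higher under same-total scaling (adjusted p 0.0246) and without edited replicate 1 (adjusted p 0.0378).

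The Arp2/3 complex, the branching nucleator, had 1 falling and 1 rising gene of 10 tested. These counts are near the 8.38% lower and 6.92% higher over all tested genes. The median of the complex was -0.29, which was -0.038 without edited replicate 1 and -0.38 without edited replicate 2. Actr2, one of its actin-like subunits, had 932.5 and 954 normalized reads in edited morulae and 1466 and 1329 in controls (-0.57 ± 0.17, adjusted p 0.0242). Its adjusted p was 0.291 without control replicate 1, 0.146 without control replicate 2 and 0.066 under same-total scaling. Arpc1b, one of a pair of alternative ARPC1 subunits, had 1137 and 1368 in edited morulae and 706 and 952 in controls (0.60 ± 0.19, adjusted p 0.0267). The groups of both genes were apart. Among the fits without 1 library, Arpc1b passed only without edited replicate 1, with adjusted p of 0.0576 without edited replicate 2, 0.434 without control replicate 1 and 0.0586 without control replicate 2. Arpc1a, its alternative, did not pass (-0.37 ± 0.24), nor did the core subunits Actr3 (-0.31 ± 0.19) and Arpc2 (-0.27 ± 0.17). None of the 6 other actin-related proteins and none of the 3 capping protein genes passed.

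Of the 6 genes for monomer binding and filament turnover, 2 fell, both beta-thymosins, which sequester actin monomers. Their full coding sequences of 135 bases, 70.4% identical, are shown because they share no run longer than 10 bases, unlike the pairs above. Capitals mark the 40 differing bases.
Tmsb10 (chr6:72957347-72958748, minus strand): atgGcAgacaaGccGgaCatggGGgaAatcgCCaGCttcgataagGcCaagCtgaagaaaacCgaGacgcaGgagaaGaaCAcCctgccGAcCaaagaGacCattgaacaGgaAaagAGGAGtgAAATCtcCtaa
Tmsb4x (chrX:167207093-167209315, minus strand): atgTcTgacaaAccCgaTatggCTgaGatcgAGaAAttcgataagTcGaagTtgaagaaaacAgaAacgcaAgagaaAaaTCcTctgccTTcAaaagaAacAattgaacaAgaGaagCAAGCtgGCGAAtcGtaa

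Tmsb10 had 3321 and 2879 normalized reads in edited morulae, against 5928 and 6844 in controls, a log2 fold change of -1.04 ± 0.16 (adjusted p 6.40e-05). Edited samples were at 48.5% of the control mean with no overlap. Tmsb4x was far lower, at 4.77 and 37.6 in edited morulae and 67.0 and 36.7 in controls (-1.76 ± 0.61, adjusted p 0.049). Its groups overlapped, since edited replicate 2 was above control replicate 2. The Tmsb4x call was lost with edgeR (adjusted p 0.167), with DESeq2 (0.291), without edited replicate 1 (0.662), without control replicate 1 (0.391) and without control replicate 2 (0.0886).

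The abundant turnover proteins gave smaller differences. Pfn1, profilin 1, had 4635 and 5691 in edited morulae and 6551 and 6290.1 in controls, and Cfl1, cofilin 1, had 6009.6 and 8432 in edited morulae and 8199 and 8796 in controls. Pfn1 samples did not overlap, and edited replicate 2 lay between the controls for Cfl1. Neither passed (-0.32 ± 0.16 and -0.25 ± 0.17), although both did without edited replicate 2 (adjusted p 0.0294 for Pfn1 and 0.0195 for Cfl1).

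Ezr rose, and its relatives Rdx and Msn did not pass. Ezrin, the ERM protein (ezrin, radixin, moesin) of the apical microvillar cortex, lies at chr17:6738041-6782784 on the minus strand. Ezr had 654 and 698 normalized reads in edited morulae, against 371 and 402 in controls, with tight replicates and no overlap (0.81 ± 0.19, adjusted p 0.00493). The adjusted p was 0.114 without control replicate 1 and 0.0626 without control replicate 2. Rdx, radixin, had 160.2 and 243 in edited morulae and 256 and 397 in controls (-0.69 ± 0.25, adjusted p 0.0617), and passed as lower without edited replicate 2 (adjusted p 7.80e-04). Msn, moesin, was low throughout, at 6.67 and 13.5 in edited morulae and 20.1 and 21.5 in controls (-1.05 ± 0.62). Vil1, villin, was below the filter.

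Vcl was the falling gene among vinculin and the talins, which connect filaments to cadherin and integrin adhesions. It had 81.0 and 67.3 normalized reads in edited morulae and 141 and 189.7 in controls, with no overlap (-1.14 ± 0.28, adjusted p 0.0071, chr14:20929398-21033676, plus strand). Its adjusted p was 0.184 without control replicate 2. Tln1 had 202 and 281 in edited morulae and 264 and 297 in controls, which overlap, and did not pass (-0.23 ± 0.23).

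**Figure D2:**
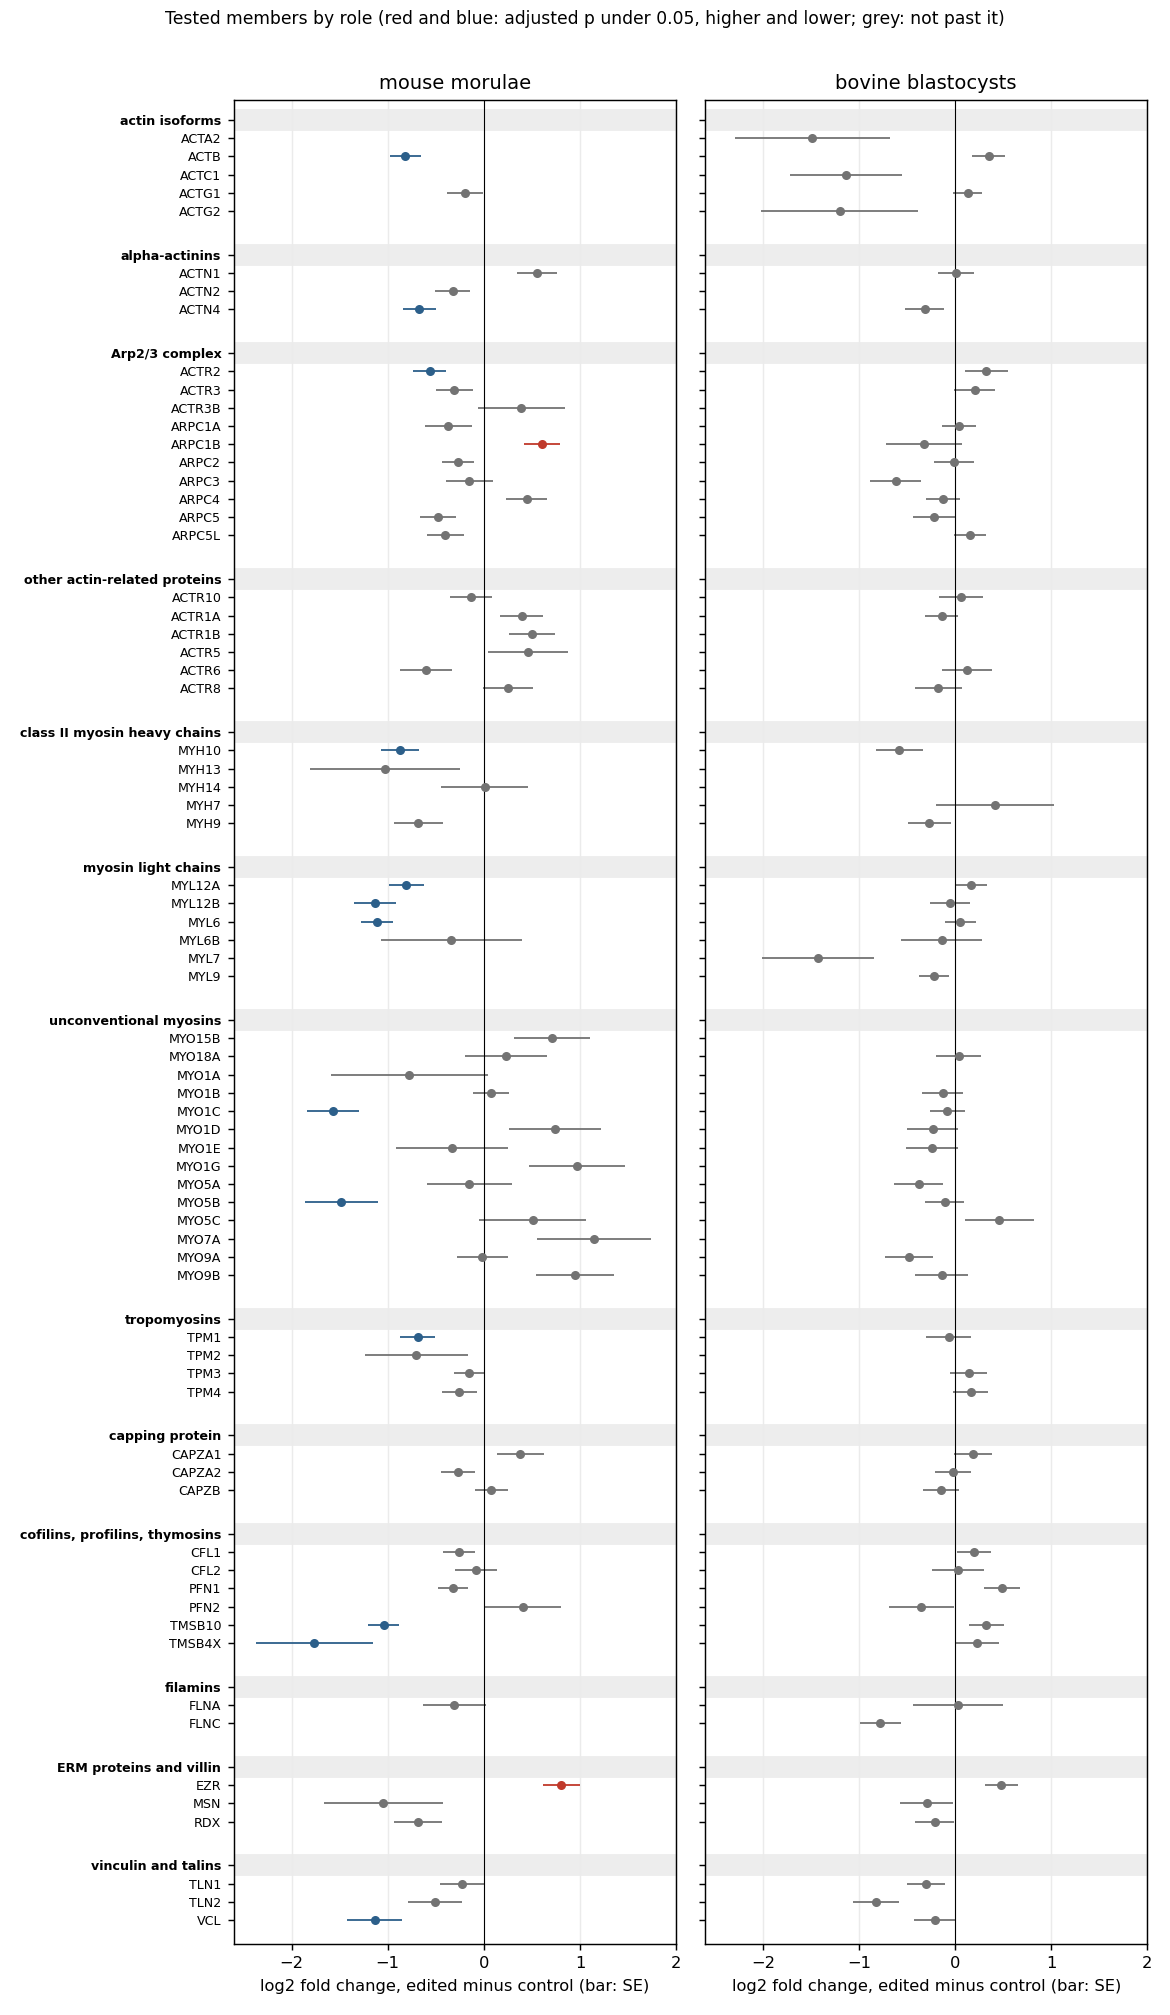
Log2 fold changes of edited minus control embryos with SE bars, for the tested genes of the group by role (1 gene is not drawn), in mouse morulae (left) and bovine blastocysts (right). The mouse panel has 13 blue (lower) and 2 red (higher) genes past an adjusted p of 0.05 while every drawn bovine gene is grey.

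Short transcripts shifted most when a length trend was taken out of each mouse sample. Myl6 and Tmsb10, with principal transcripts of 665 and 690 nucleotides, had log2 fold changes of -0.61 (adjusted p 0.011) and -0.56 (adjusted p 0.0243) after this correction. Both still passed. Pfn1, at 861 nucleotides, moved to 0.06, and Tmsb4x (-1.33, adjusted p 0.232) and Arpc1b (0.49, adjusted p 0.0828) no longer passed. Longer genes moved the other way, with Actb at -0.88, Myo1c at -1.66 and Vcl at -1.22. The counts in the group were 14 lower and 1 higher, against 14 and 2 before. Of the 14 genes lower before, 13 still passed, so the lower genes were not all the same. Over all 10686 genes in the corrected fit, 649 were lower and 530 higher.

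**Figure D3:**
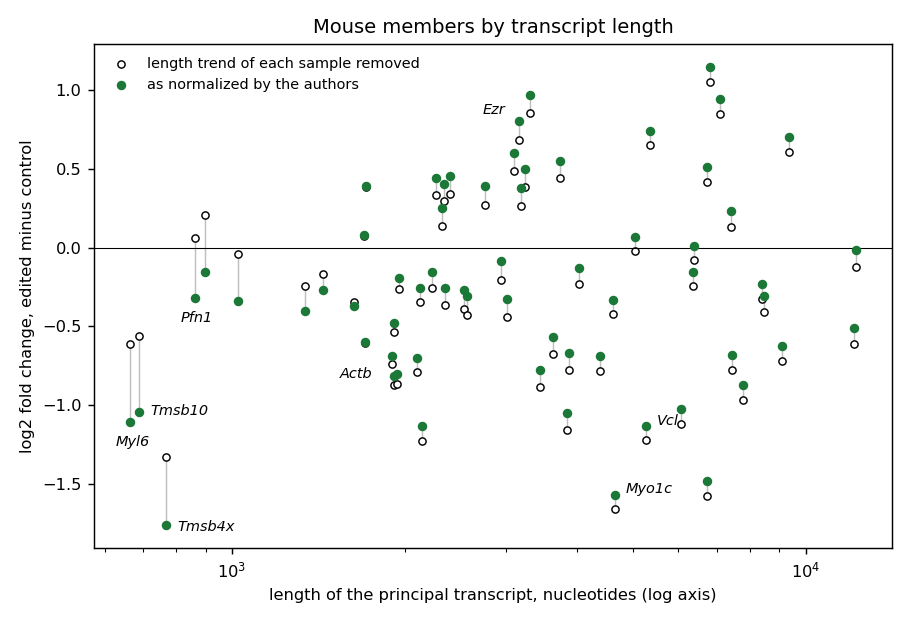
Log2 fold change of edited minus control mouse morulae (vertical axis) against principal transcript length in nucleotides (log axis) for the tested genes of the group, as normalized by the authors (green) and after the per-sample length trend was removed (open). The leftmost genes, Myl6, Tmsb10 and Tmsb4x, move up most and stay below 0, and Pfn1 crosses 0.

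For the counts on regulators and partners of the network that follow, the background is again 8.38% lower and 6.92% higher over all tested mouse genes, and for the GTPase, formin and Srf lists they were near it or below. Of 15 tested small GTPases and myosin regulators, 1 rose and 1 fell. Rhob, an endosomal small GTPase, had 279 and 173 normalized reads in edited morulae and 92.7 and 116 in controls (1.07 ± 0.27, adjusted p 0.00761), and Cdc42, a polarity GTPase, had 1499.8 and 2023 in edited morulae and 2444 and 2684 in controls (-0.56 ± 0.17, adjusted p 0.0275). Neither gene's groups overlapped. Rhob missed the threshold without edited replicate 1 (adjusted p 0.110) and without control replicate 1 (0.139), and Cdc42 missed it without edited replicate 1 (0.210), control replicate 1 (0.152) or control replicate 2 (0.280) and under same-total scaling (0.0696). The kinases Rock1 and Rock2, which activate myosin through its regulatory light chains, did not pass (-0.55 ± 0.22 and -0.02 ± 0.22), although Rock1 passed as lower with the length trend removed (-0.64, adjusted p 0.0488).

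Of 18 formins and nucleation-promoting factors 2 fell, the formin Fmnl2 (-0.98 ± 0.32) and the WAVE complex subunit Brk1 (-0.50 ± 0.17). Fmnl2 had 46.7 and 73.0 normalized reads in edited morulae and 98.3 and 137 in controls, and Brk1 had 1120.3 and 1169 in edited morulae and 1585 and 1644 in controls. Among the fits without 1 library, both passed only without edited replicate 2, with adjusted p of 0.206, 0.0954 and 0.364 for Fmnl2 and 0.0716, 0.248 and 0.303 for Brk1 without edited replicate 1, control replicate 1 and control replicate 2. Brk1 also missed the threshold with the length trend removed (adjusted p 0.338), and both missed it under same-total scaling (0.0721 for Fmnl2 and 0.112 for Brk1). Of 25 other severing, bundling and turnover proteins 4 fell and 4 rose. Cnn2, calponin 2, had 26.7 and 60.2 in edited morulae and 197 and 230.2 in controls (-2.38 ± 0.33, adjusted p 2.12e-05), and Gsn, the severing protein gelsolin, had 47.7 and 46.8 in edited morulae and 119.6 and 169.5 in controls (-1.57 ± 0.31, adjusted p 0.001). Gsn missed the threshold without control replicate 2 (adjusted p 0.0709). On the rising side, Fscn1, the bundling protein fascin, had 315 and 313 in edited morulae and 96.1 and 147 in controls (1.39 ± 0.25, adjusted p 3.71e-04). Coro1a, a coronin best known from blood cells, had 40.0 and 37.6 in edited morulae and 4.47 and 3.79 in controls (2.96 ± 0.62, adjusted p 0.00185), where 3 reads are worth 3.35 and 3.79. Beside Coro1a, the 2 blood cell markers in the table, Cd68 and Aif1, summed to 87.2 to 133 in edited morulae and 64.5 to 67.0 in controls, nearly all of it Cd68, which did not pass (0.67 ± 0.31). Cd68 passed as higher without edited replicate 2 (0.98, adjusted p 0.0308) and had a log2 fold change of 0.37 without edited replicate 1. The part of these markers in the Coro1a result was not tested.

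The transcription factor Srf and its actin-regulated cofactors Mkl1 and Mkl2 did not pass, with log2 fold changes of -0.26 to 0.07. Of 5 microvillus and brush border partners 1 fell, Cdh1, the E-cadherin of compaction, with 436 and 457 in edited morulae and 682 and 709.6 in controls (-0.64 ± 0.19, adjusted p 0.0205). Its adjusted p was 0.174 without control replicate 1, 0.217 without control replicate 2 and 0.056 under same-total scaling. None of the 4 tested myosins outside the symbol pattern passed the test. Among muscle markers, 1 of 3 tested fell. It is Mylpf, the fast skeletal regulatory light chain, with 521.5 and 423 in edited morulae and 1448 and 1333 in controls (-1.56 ± 0.18), while the defining muscle genes Des, Myod1, Ckm and Tnnt2 stayed between 0 and 11.3 in every sample. The other tested muscle genes did not pass. Ttn, titin, had 162 and 78.0 in edited morulae and 79.3 and 53.1 in controls, which overlap (0.78 ± 0.34, adjusted p 0.123), and it passed as higher without edited replicate 2 (1.31, adjusted p 0.00174). Smtn, smoothelin, had 91.5 and 74.4 in edited morulae and 93.9 and 111 in controls (-0.31 ± 0.30).

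Bovine blastocysts showed no called change in the group. With limma 0 of 60 tested genes passed in either direction, beside 0% higher and 0.0113% lower over all 8884 tested genes, and edgeR (0.0113% lower over all genes) and DESeq2 (0.0563% lower) also called 0. At an unadjusted p under 0.05, 5 genes were lower and 2 higher, which is 8.33% and 3.33% of the group beside 3.11% and 2.77% of all genes. edgeR and DESeq2 each put 6 lower and 3 higher past that mark, beside 3.44% lower and 2.58% higher of all genes with edgeR and 3.75% lower and 2.62% higher with DESeq2. The median log2 fold change was -0.09, beside 0.01 over all tested genes, and it turned to 0.03 with every sample scaled to the same total, where the all-gene median was 0.13. No tested gene of the group had edited and control samples apart, beside 0.09% higher and 0.158% lower over all genes.

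Together the group took 3.91% to 5.79% of normalized reads in edited blastocysts and 3.01% to 4.46% in controls. The ranges overlap. The 18S ribosomal gene RN18S1 took 9.27% to 19.7% in edited blastocysts and 12.4% to 36.6% in controls, with the highest share in the control sample that has the lowest share for the actin group. The part of RN18S1 in these shares was not tested. None of the 7 tested trophectoderm markers passed in cattle, and their sum was 9274 to 22263 in edited blastocysts and 11763 to 22512 in controls.

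**Figure D4:**
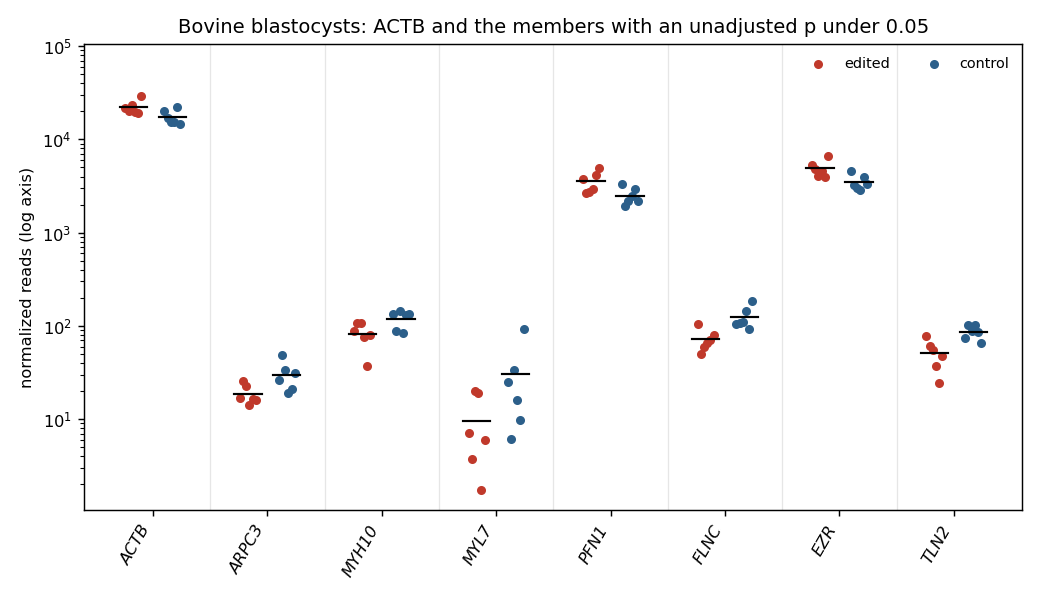
Normalized reads (log axis) in bovine blastocysts for ACTB and the 7 genes of the group with an unadjusted p under 0.05, with edited samples in red left of control samples in blue, 1 point per sample and a bar at the group mean. The groups overlap for all 8 genes, and MYL7 has 1 control sample at 92.9 far above the rest.

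The abundant actin and profilin genes had higher medians in edited than in control bovine blastocysts, and none passed the adjusted test. ACTB had a lowest, median and highest value of 19428, 20979.9 and 29473 normalized reads in edited blastocysts and 14799.9, 16280.5 and 22088 in controls (0.35 ± 0.17, unadjusted p 0.0552, 95% interval -0.01 to 0.71). The lowest edited sample lay above the control median, and the groups overlapped. ACTG1 ran from 5889.8 to 8460.1 with a median of 6786 in edited blastocysts and from 5795 to 7489 with a median of 6351 in controls (0.13 ± 0.15). PFN1 had 2679, 3362 and 4919.9 in edited blastocysts and 1909.8, 2328 and 3321 in controls (0.49 ± 0.19, unadjusted p 0.0173, adjusted p 0.792). Its unadjusted p was 0.0525 without edited sample 6.

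EZR was the other gene higher at an unadjusted p under 0.05. It had 3922, 4658 and 6654 normalized reads (lowest, median, highest) in edited blastocysts and 2836, 3260.0 and 4621 in controls (0.48 ± 0.17, unadjusted p 0.0108, adjusted p 0.792). The highest control was the only one within the edited range. RDX (-0.21 ± 0.20) and MSN (-0.30 ± 0.28) had negative estimates that did not pass.

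FLNC and TLN2 had the smallest unadjusted p values. FLNC, filamin C, had 50.02, 67.9 and 104 normalized reads in edited blastocysts and 93.0, 108 and 185 in controls (-0.78 ± 0.21, unadjusted p 0.00163). TLN2, talin 2, had 24.7, 51.2 and 78.4 in edited blastocysts and 65.2, 86.5 and 102 in controls (-0.82 ± 0.24, unadjusted p 0.00301). Neither passed after adjustment, and the authors' deposited DESeq2 test gives adjusted p of 0.587 for FLNC and 0.851 for TLN2. Edited sample 1 was the one that reached the control range in both genes. Both kept an unadjusted p of at most 0.00867 whichever library was left out. The genes were picked for their small p in these same libraries, so these fits are no independent support.

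MYH10 had 37.3, 83.6 and 107 in edited blastocysts and 84.4, 134 and 144 in controls (-0.58 ± 0.24, unadjusted p 0.0272). ARPC3, an Arp2/3 subunit, was low, at 14.0, 16.7 and 25.9 in edited blastocysts and 19.1, 28.6 and 49.2 in controls (-0.62 ± 0.27, unadjusted p 0.0316). MYL7, the atrial light chain, had 1.72, 6.52 and 19.8 in edited blastocysts and 6.16, 20.6 and 92.9 in controls (-1.42 ± 0.58, unadjusted p 0.0244). The groups of all 3 genes overlapped. The unadjusted p was as high as 0.0852 for MYH10 (without edited sample 5), 0.0963 for ARPC3 (without control sample 2) and 0.0864 for MYL7 (without control sample 6, which held its highest value). It also exceeded 0.05 without edited samples 2 or 5 or control sample 3 for MYL7, without control samples 1, 3 or 5 for MYH10, and without edited samples 1, 4, 5 or 6 or control sample 3 for ARPC3. The smooth and cardiac muscle actins ACTA2, ACTG2 and ACTC1 were also low and scattered, with medians of 10.7, 4.25 and 4.95 in edited blastocysts and 35.0, 15.4 and 10.8 in controls, and none passed even unadjusted. The bovine muscle markers in the table, TTN and SMTN, summed to 53.8 to 170 in edited blastocysts and 56.5 to 232 in controls.

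The light chains that fell in mouse did not pass in cattle. MYL6 had a median of 2014 in edited blastocysts and 1809 in controls (0.05 ± 0.16, 95% interval -0.29 to 0.40). MYL12A had 1697 and 1634 as edited and control medians (0.17 ± 0.16), and MYL12B had 164 and 191 (-0.05 ± 0.21). Each range overlapped widely. TMSB10 ran from 4171 to 6359 in edited blastocysts and from 2847 to 6138 in controls (0.33 ± 0.18), and MYO1C from 71.2 to 104 in edited blastocysts and from 77.0 to 122 in controls (-0.08 ± 0.18).

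The fold changes of 53 genes could be set against each other between the tables, as the mouse log2 fold change minus the bovine one. The difference passed an adjusted p of 0.05 for 8 of the 53, beside 6.07% of the 7073 symbols tested in both tables. All 8 differences were negative. They were -1.37 ± 0.24 for TMSB10 (adjusted p 3.19e-04), -1.16 ± 0.23 for MYL6 (0.00153), -1.16 ± 0.24 for ACTB (0.00174), -1.49 ± 0.33 for MYO1C (0.00394), -0.98 ± 0.24 for MYL12A (0.0101), -1.08 ± 0.30 for MYL12B (0.0237), -0.81 ± 0.25 for PFN1 (0.0400) and -1.38 ± 0.43 for MYO5B (0.0466). ACTR2 lay just outside (-0.89 ± 0.28, adjusted p 0.0502). The edited gene itself had log2 fold changes of -2.86 in mouse and -1.21 in cattle by the authors' deposited DESeq2 test. The part of this unequal loss in the differences was not tested. Without 1 mouse library the number of genes was 5 (edited replicate 1), 13 (edited replicate 2), 4 (control replicate 1) or 3 (control replicate 2). Only TMSB10, MYL6 and ACTB passed whichever single library of either species was left out, and MYL6 missed the threshold with the mouse length trend removed (adjusted p 0.0674). MYO1C was lost without mouse control replicate 2 (0.097), MYL12A without mouse control replicate 1 (0.0578) or 2 (0.12), and MYL12B without mouse edited replicate 1 (0.236), control replicate 1 (0.104) or control replicate 2 (0.124). MYO5B and PFN1 were each lost in 10 of the 16 such fits, in both species' libraries, and also with the length trend removed (0.0519 for MYO5B and 0.290 for PFN1).

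For MYH10 the estimates had the same sign, -0.87 ± 0.19 in mouse and -0.58 ± 0.24 in cattle, and the difference of -0.29 ± 0.31 did not pass (adjusted p 0.626). For EZR they were 0.81 ± 0.19 in mouse and 0.48 ± 0.17 in cattle, with a difference of 0.32 ± 0.26 (adjusted p 0.494). A p that misses the threshold does not show that the species responded alike. Over the 53 genes 20 had lower and 5 higher estimates in edited embryos of both species, and 28 had opposite signs. Across these genes, which share libraries and are not independent, Pearson's r was -0.009 and Spearman's rank correlation -0.07, given as a description.

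**Figure D5:**
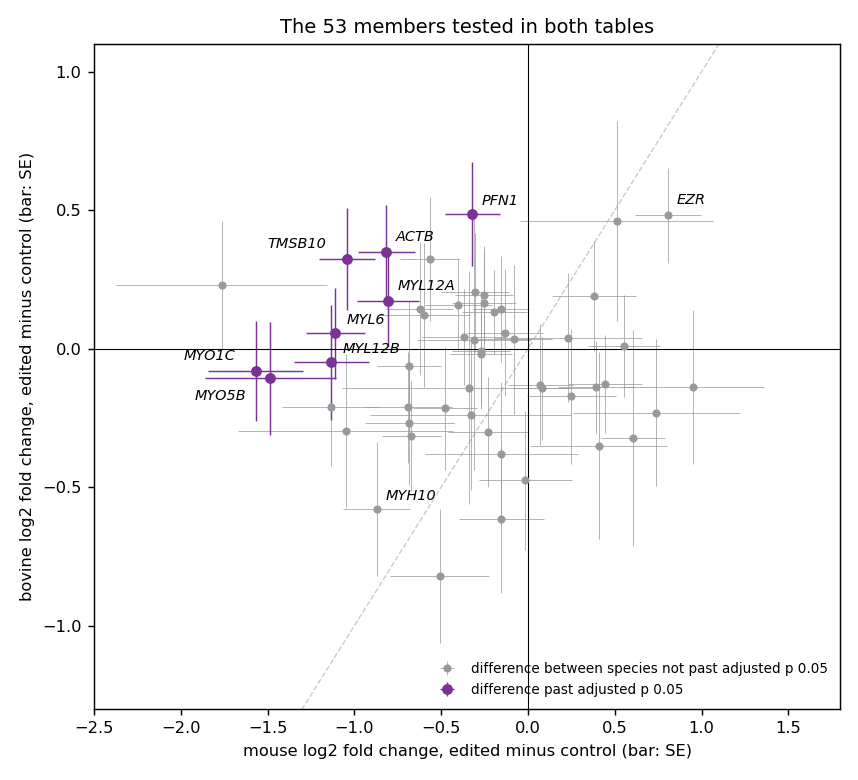
Log2 fold change of edited minus control embryos in mouse (horizontal axis) and cattle (vertical axis) for the 53 genes tested in both tables, with SE bars, equal values on the dashed line and the 8 genes whose difference passed an adjusted p of 0.05 in purple. All 8 lie left of 0 and above the dashed line, while MYH10 and EZR lie nearer to it.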

How the data were processed

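Libraries followed Smart-seq2 with oligo(dT) priming of polyadenylated RNA, per the labels' protocols. Trimmomatic, HISAT2, featureCounts and DESeq2 (no versions) and the builds mm10 and ARS-UCD1.2 are named in the submitters' processing notes. The gene annotation, the strand setting and the treatment of multiply matching reads are not given in the sources used here. The deposited signal values are each gene's read count divided by a size factor of its sample, judged from DESeq2's column names in the file headers and from the whole-read steps of the values. The authors' log2 fold changes, p-values and test statistic (a score, not used) stand in the same deposited tables, per the file headers. Dividing by these steps returned whole reads (within 0.05 reads) for 100% of values, and 3 reads are worth 2.13 to 3.79 normalized reads in mouse and 1.71 to 5.56 in cattle, which covers counting error only.

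Groups were read from the titles. Each of the 2 separately normalized tables was fitted alone: log2(value + 1) of genes with a mean of at least 10 was tested with limma 3.58.1 (R 4.3.3, trend, edited minus control, two-sided, Benjamini-Hochberg over all tested genes, threshold 0.05). This scale understates fold changes of low genes. Errors of fold changes are SE from limma, and adjusted p are limma's unless another tool is named. edgeR 4.0.16 (quasi-likelihood, TMM) and DESeq2 1.42.0 on recovered reads were alternatives, beside other pseudocounts, filters, scalings, robust limma, a replicate block, omitted libraries and, in mouse, removal of a length trend (loess on principal transcript length). Differences between species divided the difference of both estimates by the root of the summed squared SE, with Satterthwaite degrees of freedom and adjustment over shared symbols, and the alternatives for these differences were chosen after seeing the data. Scripts were tested on simulated data.

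Genes and lists were chosen with earlier results of these data known. Named were all called genes of the group (1 of the 16 in mouse is not reported here by name), 26 core genes whether called or not, bovine genes with an unadjusted p under 0.05, and up to 4 called genes per pathway list. Genes named outside this rule (Acta1, Arpc1a, Myl6b, Myh13, Myo7a, the bovine muscle actins, the Srf, Rock and muscle genes) were chosen after their values were seen. Coordinates and sequences are from GENCODE M21 (GRCm38, the same assembly as mm10), to which all 86 mouse genes matched. Bovine coordinates, bovine transcript lengths, promoter motifs and proteins were not used here.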

Additional observations from a re-analysis of the deposited data

Results flagged for a closer look

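For the named bovine genes, 58 groups of 6 samples were checked for a sample far from the others. Chance alone flags about 1 in 20 groups, so the 2 found are no more than chance would give. Control sample 6 stood at 92.9 normalized reads of MYL7, while the other controls ran from 6.16 to 33.5. Control sample 2 stood at 753 normalized reads of ACTN1, while the other controls ran from 464 to 541.

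The log2 fold change differed between species, by a test of the difference itself, for 8 genes. The mouse minus bovine differences were -1.37 for TMSB10, -1.16 for MYL6, -1.49 for MYO1C, -1.16 for ACTB, -0.98 for MYL12A, -1.08 for MYL12B, -1.38 for MYO5B and -0.81 for PFN1. Stage and species cannot be told apart in these differences. The fold change of the edited gene also differed, at -2.86 for Tead4 in mouse and -1.21 for TEAD4 in cattle by the authors' deposited DESeq2 test. Its part in these differences was not tested.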

How the results depend on the processing

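With 2 samples per mouse group and as few as 817329 reads in a bovine sample, precision is limited. In mouse, 1 gene of the group was higher with the length trend removed and 4 with same-total scaling without the most abundant feature, against 2. With 1 library left out, 0 to 4 were higher, 6 to 21 lower, and 580 to 2588 of all mouse genes passed, against 1742. In cattle DESeq2 called 5 genes over the table, against 1. The bovine group median was 0.026 with same-total scaling. At an unadjusted p under 0.05, 4 bovine genes were higher with no filter and with same-total scaling, 3 were lower with a mean of at least 50 and with same-total scaling, and 1 to 4 were higher and 2 to 6 lower with 1 library left out. Differences between species numbered 5 with same-total scaling without the most abundant feature and 3 to 13 with 1 library left out. The cause of these shifts was not tested.

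Changes of sign were looked for only among the called and core genes and the bovine genes with an unadjusted p under 0.05. Among those genes, estimates near 0 changed sign. In mouse these were Pfn1 with the length trend removed (0.060), Tpm3 with same-total scaling without the most abundant feature (0.020), and, with 1 library left out, Tln1 (-0.47 to 0.0072) and Actg1 (-0.58 to 0.19). In cattle they were FLNA with edgeR (-0.21) and DESeq2 (-0.25), TPM1 (0.058), MYL12B (0.072) and ARPC2 (0.11) with same-total scaling, and ACTN1 without the most abundant feature (-0.018). With 1 bovine library left out the ranges were -0.35 to 0.33 for FLNA, -0.025 to 0.12 for MYL6, -0.20 to 0.10 for TPM1, -0.19 to 0.031 for MYL12B, -0.090 to 0.12 for ACTN1 and -0.13 to 0.13 for ARPC2.

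Samples shared only a replicate number across groups. Same-numbered deviations correlated at 0.106 in mouse and at -0.193 to 0.335 in cattle. With 2 samples per group, the 2 mouse pairs give the same value by construction. With the replicate number as a block, 2 mouse genes of the group were higher and 15 lower, and 0 bovine genes of the group passed. A length correction in cattle was not run for want of transcript lengths of that build.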
